A study of Homo sapiens with 6 samples.

Results

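The collagen crosslinking and hydroxylation enzymes were taken as the 9 genes LOX, LOXL1, LOXL2, PLOD1, PLOD2, PLOD3, P4HA1, P4HA2 and SERPINH1, matched by symbol in a table of 24872 rows. All 9 were found, each in 1 row, and all 9 stood above 0.5 FPKM in every library. The cells were 22RV1, an established human prostate cancer line that grows without androgen, collected on day 2. The groups were NC, a control whose nature the labels do not describe, OE, with the long noncoding RNA MAGI2-AS3 overexpressed, and mimics, given the microRNA miR-106a-5p. Each group had 2 libraries. The labels' protocol speaks of overexpression plasmids for either RNA, while the titles say mimics, which leaves unclear how the microRNA was delivered. The overexpressed RNA is not analysed here and gives no check of the OE label. The labels do not say that replicates were separate cultures, so p-values reflect the spread among these libraries alone and that spread may be technical.

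Collagen chains are modified in the endoplasmic reticulum before they are secreted. Prolyl 4-hydroxylase, a tetramer of catalytic alpha subunits and protein disulfide isomerase (P4HB), hydroxylates prolines and so makes the triple helix stable at body temperature, and lysyl hydroxylases (the PLOD genes) hydroxylate lysines that later carry sugars and crosslinks. Both enzyme families need iron, oxygen, ascorbate and 2-oxoglutarate. SERPINH1, also called HSP47, is a chaperone that holds the folded triple helix, and the copper-dependent lysyl oxidases (LOX and its relatives) oxidise lysine and hydroxylysine outside the cell to start the crosslinks. Some genes of these families are known to be induced in hypoxia through the factor HIF-1 in several cell types. Whether HIF-1 acted on them in these cells was not tested.

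The values deposited were FPKM, which divide fragments by the length of the transcript and by a library's mapped total, so that levels can be compared between genes. Column sums were 402526 to 429262 FPKM, and 12344 to 12983 rows reached 1 FPKM. Depth in fragments is not given, but ratios that recurred among values under 0.1 FPKM, in 5 to 13 rows a library, put the depth of the other libraries at 0.763 to 1.07 times that of NC replicate 1. Replicates correlated across tested rows, which are not independent, at 0.992 in NC, 0.994 in OE and 0.983 in mimics. The mimics libraries stood apart in composition: the 13 mitochondrially encoded genes held 8.29% to 9.67% of the FPKM sum in NC and OE, but 6.23% in the first mimics library and 0.533% in the second. The 8 luminal prostate markers, all tested, summed to 987.43 to 1086.4 FPKM in NC, 814.66 to 883.62 in OE and 1172.3 to 1220.5 in mimics. KRT8, a large part of this sum, was lower in OE than in mimics (log2 difference -0.82, adjusted p = 0.0178 by limma). No other marker of the 8 passed in any comparison. Basal prostate and endothelial markers summed to at most 0.287 and 0.0728 FPKM, and leukocyte markers to at most 3.02 FPKM.

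In mimics, 5 of the 9 enzymes were higher than in NC and none was lower, and in OE none passed against NC. The 5 were both prolyl 4-hydroxylase alpha subunits, the lysyl hydroxylases PLOD1 and PLOD2, and LOX. The lysyl hydroxylase PLOD3, the chaperone SERPINH1 and LOXL1 did not pass in any comparison, and LOXL2 passed only between OE and mimics. Differences were tested with limma on log2(FPKM + 0.5) in the 13998 rows that averaged 0.5 FPKM or more, with Benjamini-Hochberg adjustment and a threshold of 0.05, and all log2 differences are on that scale, on which changes of low genes come out too small. Over all rows 4.29% passed as higher in mimics than in NC and 3.71% as lower. The mimics libraries did not overlap the NC libraries for 6 members, all higher (the 5 and LOXL2), where 27.2% of all rows did not overlap in the higher direction and 25.6% in the lower. The median difference of the 9 members was 0.80 in mimics against NC, where the median of all tested rows was -0.0021. With each NC or mimics library left out in turn, the differences of the 5 stayed above 0. They ran from 0.68 (PLOD1, without NC replicate 1) to 1.50 (P4HA1, without mimics replicate 2). How many members passed depended on the library left out, as did the number of all rows that passed (ranges are given at the end). In bulk RNA, more cells that express a gene and more of its RNA in each cell cannot be told apart.

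**Figure D1:**
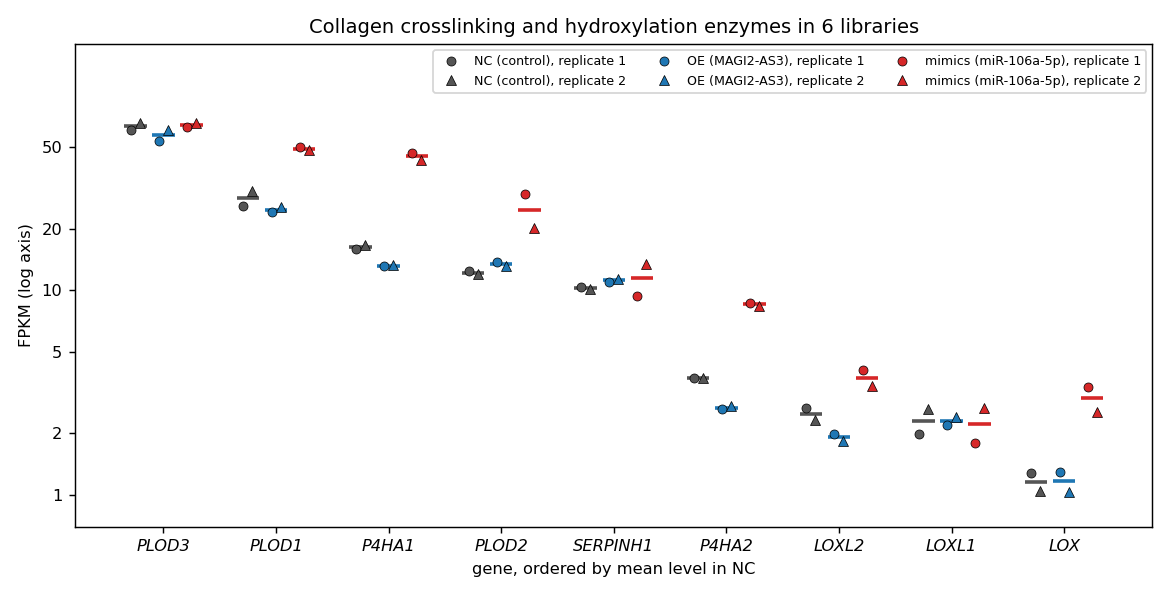
FPKM of the 9 genes on a log axis in each of the 6 libraries (circles for replicate 1, triangles for replicate 2, short lines for group means), ordered by mean level in NC. For P4HA1, P4HA2, PLOD1, PLOD2, LOXL2 and LOX both mimics libraries lie above the 4 NC and OE libraries.

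In control cells the members spanned a wide range of levels. PLOD3 was highest with a mean of 63.6 ± 3.53 FPKM (SD, n = 2), above 91.3% of 12360 annotated tested rows, followed by PLOD1 (28.2 ± 3.36 FPKM), P4HA1 (16.3 ± 0.4925), PLOD2 (12.2 ± 0.243) and SERPINH1 (10.3 ± 0.205). P4HA2 stood at 3.72 ± 0.00706 FPKM, and the lysyl oxidases were lowest, with LOXL2 at 2.50 ± 0.230, LOXL1 at 2.30 ± 0.453 and LOX at 1.16 ± 0.170 FPKM, the last above 8.12% of those rows. Neighbours in this order had ranges that did not overlap between the NC libraries, except LOXL2 and LOXL1.

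P4HA1 (ENSG00000122884), the main catalytic alpha subunit of prolyl 4-hydroxylase in many tissues, had the largest rise of the members. It stood at 16.0 and 16.7 FPKM in NC, 13.1 and 13.3 in OE and 47.1 and 43.3 in mimics. The mimics libraries lay well above all the others, and the OE libraries were the lowest. In mimics P4HA1 rose over NC by a log2 difference of 1.44 (95% interval 1.21 to 1.67, SE 0.10, adjusted p = 0.000422 by limma), the 47th largest rise of 12360 annotated tested rows. Against mimics, P4HA1 in OE differed by -1.74 (-1.97 to -1.51, adjusted p = 0.000105). The OE difference from NC, -0.30 (-0.53 to -0.07), did not pass (adjusted p = 0.584).

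P4HA2 (ENSG00000072682), the second alpha subunit, followed the same order at a lower level. It stood at 3.71 and 3.72 FPKM in NC, 2.62 and 2.71 in OE and 8.69 and 8.39 in mimics. The 3 groups did not overlap, and the spread within each group was small beside the gaps between them. P4HA2 rose in mimics by 1.10 (0.80 to 1.40, adjusted p = 0.00355) and its OE level differed from mimics by -1.51 (-1.81 to -1.22, adjusted p = 0.000766). Against NC the OE difference was -0.42 (-0.71 to -0.12, adjusted p = 0.547, unadjusted 0.0120 by limma). Without NC replicate 1 the rise in mimics missed the threshold (1.10, adjusted p = 0.0531).

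Because both alpha subunits moved, their make-up shifted little. P4HA1 held 81.2% and 81.8% of the summed FPKM of the 2 subunits in NC, 83.4% and 83.0% in OE and 84.4% and 83.8% in mimics, while the sum itself was 19.7 and 20.4 FPKM in NC, 15.7 and 15.97 in OE and 55.8 and 51.7 in mimics. The partner P4HB, which is much more abundant and also works outside this enzyme, was 228.05 and 265 FPKM in NC and 234 and 219.92 in mimics (log2 difference -0.12, adjusted p = 0.587). The ratio of the alpha subunits' FPKM to that of P4HB was 0.0864 and 0.0771 in NC, 0.0715 and 0.0691 in OE, and 0.239 and 0.235 in mimics. P4HA3, a further alpha subunit, stayed at 0.166 to 0.391 FPKM in all libraries and was below the filter.

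Among the lysyl hydroxylases, PLOD1 (ENSG00000083444), which acts on lysines of the helical part of collagen, was 25.8 and 30.6 FPKM in NC, 24.1 and 25.6 in OE and 50.1 and 48.3 in mimics. The mimics libraries stood apart from the other 4, which lay close together. PLOD1 rose in mimics by 0.80 (0.54 to 1.05, adjusted p = 0.00556) and OE differed from mimics by -0.97 (-1.23 to -0.72, adjusted p = 0.00302). The OE difference from NC was -0.18 (-0.43 to 0.08, adjusted p = 0.938). Without NC replicate 1 the rise in mimics was 0.68 and missed the threshold (adjusted p = 0.0717). Without the filter on low values both PLOD1 differences missed it (adjusted p = 0.0804 against NC and 0.0698 between OE and mimics).

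PLOD2 (ENSG00000152952), which acts on the telopeptide lysines that form stable crosslinks, was 12.4 and 12.1 FPKM in NC, 13.8 and 13.2 in OE and 29.5 and 20.2 in mimics. The mimics libraries were above the others but differed from each other more than those of either other group, with the library low in mitochondrially encoded RNA the lower of the pair. PLOD2 rose in mimics by 0.97 (0.59 to 1.34, adjusted p = 0.0121), by 1.24 without mimics replicate 2 and by 0.70 without mimics replicate 1. It missed the threshold without NC replicate 1 (adjusted p = 0.107), NC replicate 2 (0.0988) or the filter (0.152). OE differed from mimics in PLOD2 by -0.83 (-1.20 to -0.46, adjusted p = 0.0199), a call lost without NC replicate 1 (adjusted p = 0.0509), NC replicate 2 (0.0508), OE replicate 1 (0.123) or OE replicate 2 (0.117), or without the filter (0.177). Both OE libraries were above both NC libraries, by 0.14 on average (-0.24 to 0.51, adjusted p = 0.998).

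PLOD3 (ENSG00000106397), which also carries a collagen glycosyltransferase activity, was 61.1 and 66.1 FPKM in NC, 53.8 and 60.7 in OE and 63.0 and 65.7 in mimics. The NC and mimics libraries overlapped. Its difference in mimics against NC was 0.02 (-0.22 to 0.26, adjusted p = 0.936), an interval that lies under the differences of PLOD1 and PLOD2 themselves, although the difference between genes was not tested. PLOD3 held 61.5% and 60.8% of the summed FPKM of the 3 lysyl hydroxylases in NC, 58.7% and 60.98% in OE, and 44.2% and 48.96% in mimics. PLOD1 went the other way, from 26.0% and 28.1% in NC to 35.1% and 36.0% in mimics. The sum of the 3 was 99.4 and 109 FPKM in NC, 91.7 and 99.5 in OE and 143 and 134 in mimics.

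**Figure D2:**
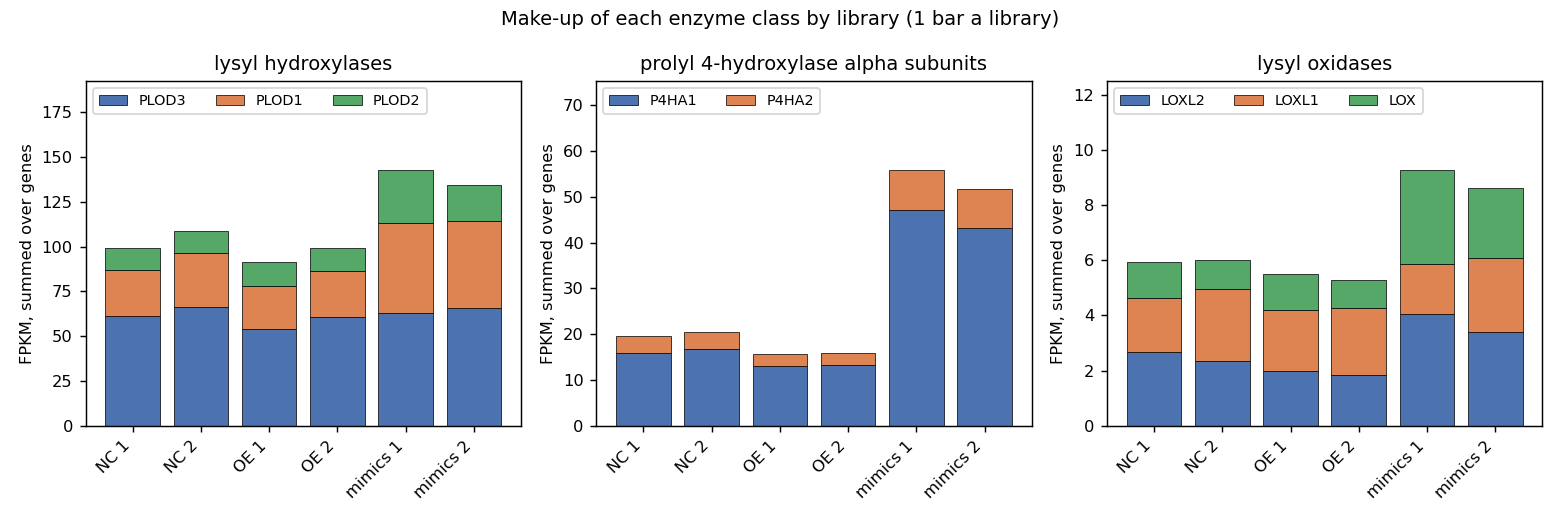
Stacked FPKM of the lysyl hydroxylases, prolyl 4-hydroxylase alpha subunits and lysyl oxidases, 1 bar for each of the 6 libraries, with a linear axis from 0 in each panel. The PLOD3 segment is 53.8 to 66.1 FPKM in all libraries, while the P4HA1 segment is 43.3 and 47.1 FPKM in mimics against 13.1 to 16.7 FPKM in the other 4.

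SERPINH1 (ENSG00000149257), the collagen chaperone, was 10.4 and 10.1 FPKM in NC, 11.0 and 11.4 in OE and 9.44 and 13.5 in mimics. The mimics libraries lay on either side of all the others. Its difference in mimics against NC was 0.13 (-0.24 to 0.49, adjusted p = 0.659) and was negative, -0.12, without mimics replicate 2. Between OE and mimics it was -0.01 (-0.37 to 0.35, adjusted p = 0.975), with the sign turned to 0.08 after rescaling without the mitochondrially encoded genes and to 0.01 with median-of-ratios scaling.

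The lysyl oxidases were low in these cells. LOX (ENSG00000113083), the founding member, was 1.28 and 1.04 FPKM in NC, 1.30 and 1.03 in OE and 3.39 and 2.55 in mimics. NC and OE overlapped almost fully, and both mimics libraries lay above them. LOX rose in mimics by 1.05 (0.61 to 1.495, adjusted p = 0.0155) and OE differed from mimics by -1.05 (-1.49 to -0.61, adjusted p = 0.0161). The second of these calls was lost without OE replicate 1 (adjusted p = 0.0912), OE replicate 2 (0.133) or the filter (0.131). The rise missed the threshold without NC replicate 1 (adjusted p = 0.0988), NC replicate 2 (0.121) or the filter (0.132). In OE the difference from NC was 0.0019 (-0.44 to 0.44, adjusted p = 0.9996).

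LOXL2 (ENSG00000134013), which acts on collagen IV of basement membranes, was 2.66 and 2.34 FPKM in NC, 1.99 and 1.84 in OE and 4.07 and 3.41 in mimics. The 3 groups did not overlap. The difference between mimics and NC was 0.50 (0.13 to 0.86) and did not pass (adjusted p = 0.0940), except without mimics replicate 2 (0.61, adjusted p = 0.0315). OE differed from mimics in LOXL2 by -0.81 (-1.17 to -0.44, adjusted p = 0.0204), a call lost without OE replicate 1 (adjusted p = 0.145), without OE replicate 2 (0.162) or without the filter on low values (0.110). Its OE difference from NC was -0.31 (-0.68 to 0.06, adjusted p = 0.883). LOXL1 (ENSG00000129038), which is known for its part in elastic fibres, was 1.98 and 2.62 FPKM in NC, 2.20 and 2.42 in OE and 1.81 and 2.65 in mimics. All 3 groups of LOXL1 overlapped, with a difference of -0.05 in mimics against NC (-0.51 to 0.42, adjusted p = 0.909). LOX made up 21.7% and 17.4% of the summed FPKM of the 3 oxidases in NC and 36.6% and 29.6% in mimics.

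**Figure D3:**
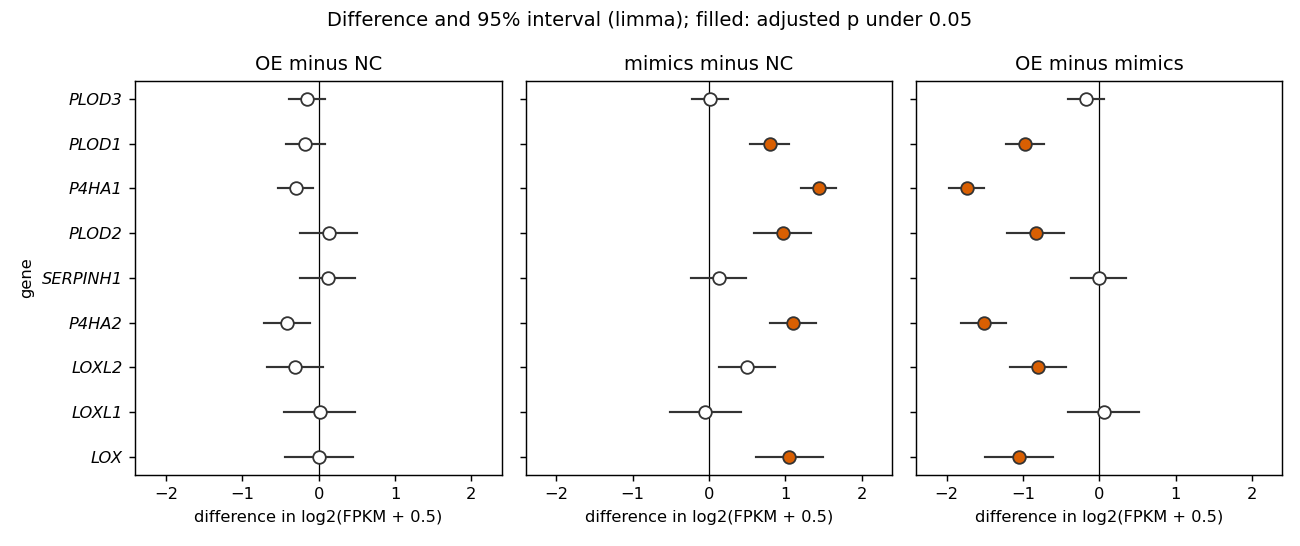
Differences in log2(FPKM + 0.5) with 95% intervals from limma for the 9 genes in the 3 comparisons, filled where the adjusted p was under 0.05. Filled points number 0 for OE minus NC, 5 for mimics minus NC and 6 for OE minus mimics.

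The comparison of OE with NC asked whether raising MAGI2-AS3 changed these enzymes, and 0 of 9 passed (limma), with 2 at an unadjusted p under 0.05, P4HA1 and P4HA2. Over all rows 0.257% passed in this comparison, 0.0143% as higher and 0.243% as lower, and 907 of 13998 had an unadjusted p under 0.05 (limma). For 5 members the OE libraries were each below the NC libraries (P4HA1, P4HA2, LOXL2, PLOD1 and PLOD3) and for PLOD2 and SERPINH1 they were above, where 26.5% of all tested rows did not overlap in the lower direction and 15.4% in the higher. The median of the 9 members was -0.15, beside -0.02 for all tested rows.

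The direct comparison of OE with mimics found 6 members lower in OE (P4HA1, P4HA2, PLOD1, PLOD2, LOX and LOXL2) and none higher, where 5.32% of all rows passed as lower and 2.52% as higher. These 6 differences share the mimics libraries with the comparison of mimics against NC. With each OE or mimics library left out in turn, the 6 differences stayed below 0. They ran from -1.80 (P4HA1, without mimics replicate 2) to -0.56 (PLOD2, without mimics replicate 1). How many members passed depended on the library left out, as did the number of all rows that passed (ranges are given at the end). The members' median was -0.83, beside -0.02 for all rows. Over all rows, the split between higher and lower calls moved with scaling: 353 higher and 745 lower as deposited, but 557 and 513 after rescaling without the mitochondrially encoded genes. In mimics against NC it moved from 600 higher and 520 lower to 405 and 796, with 5 members higher under both.

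Promoter sequences are shown for the 5 members whose RNA rose in mimics and for PLOD3 and SERPINH1, whose RNA did not pass, because the letters that HIF binds are short and can be read directly. Each runs 5′ to 3′ on the gene's strand from 250 bases before to 50 bases after a start site, from RefSeq on GRCh38.p14. The core searched was ACGTG or GCGTG on either strand (CACGT or CACGC when read on the strand shown), and matches are in capitals. Where a gene has several windows the most upstream is shown.
P4HA1: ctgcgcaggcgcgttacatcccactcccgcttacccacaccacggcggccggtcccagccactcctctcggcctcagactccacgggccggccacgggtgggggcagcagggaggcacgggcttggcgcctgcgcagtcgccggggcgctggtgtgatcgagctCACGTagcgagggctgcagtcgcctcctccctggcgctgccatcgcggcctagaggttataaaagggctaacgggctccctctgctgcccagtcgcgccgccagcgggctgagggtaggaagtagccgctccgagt
PLOD2: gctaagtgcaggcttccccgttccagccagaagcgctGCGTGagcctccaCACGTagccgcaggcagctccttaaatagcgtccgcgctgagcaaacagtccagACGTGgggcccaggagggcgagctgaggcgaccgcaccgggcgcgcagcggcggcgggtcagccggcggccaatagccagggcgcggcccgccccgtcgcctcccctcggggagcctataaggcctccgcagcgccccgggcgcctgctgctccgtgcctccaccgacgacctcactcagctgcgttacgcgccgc
PLOD1: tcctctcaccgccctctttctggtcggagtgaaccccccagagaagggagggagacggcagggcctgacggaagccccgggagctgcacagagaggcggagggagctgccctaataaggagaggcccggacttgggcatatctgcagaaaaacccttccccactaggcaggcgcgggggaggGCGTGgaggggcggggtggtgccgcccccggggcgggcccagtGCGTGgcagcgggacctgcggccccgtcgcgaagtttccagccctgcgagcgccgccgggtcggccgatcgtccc
LOX: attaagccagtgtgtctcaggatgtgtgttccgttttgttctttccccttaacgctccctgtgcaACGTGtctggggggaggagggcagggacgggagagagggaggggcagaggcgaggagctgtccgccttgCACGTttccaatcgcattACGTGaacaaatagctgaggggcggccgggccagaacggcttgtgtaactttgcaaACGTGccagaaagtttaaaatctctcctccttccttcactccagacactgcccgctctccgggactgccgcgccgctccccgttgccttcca
P4HA2: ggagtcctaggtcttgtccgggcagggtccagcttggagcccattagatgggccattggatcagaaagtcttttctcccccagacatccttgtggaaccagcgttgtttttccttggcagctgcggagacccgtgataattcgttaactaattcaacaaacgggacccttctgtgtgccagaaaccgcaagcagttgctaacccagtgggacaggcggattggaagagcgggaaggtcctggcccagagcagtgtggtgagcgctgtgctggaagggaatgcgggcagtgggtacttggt
PLOD3: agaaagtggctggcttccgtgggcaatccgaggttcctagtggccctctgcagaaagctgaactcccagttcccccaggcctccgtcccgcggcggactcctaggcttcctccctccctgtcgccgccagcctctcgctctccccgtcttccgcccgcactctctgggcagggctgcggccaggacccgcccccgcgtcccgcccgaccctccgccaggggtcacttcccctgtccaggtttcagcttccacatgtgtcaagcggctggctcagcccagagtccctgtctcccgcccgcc
SERPINH1: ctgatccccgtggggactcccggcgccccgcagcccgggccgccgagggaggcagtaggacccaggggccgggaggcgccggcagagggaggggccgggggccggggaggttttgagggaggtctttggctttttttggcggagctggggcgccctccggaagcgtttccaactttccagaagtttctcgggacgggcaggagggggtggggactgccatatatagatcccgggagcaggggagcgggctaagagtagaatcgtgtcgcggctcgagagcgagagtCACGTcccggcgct
P4HA1 (chr10:73096817-73097116, minus strand) held 1 match, PLOD2 (chr3:146161135-146161434, minus strand) 3, PLOD1 (chr1:11934467-11934766, plus strand) 2, and the LOX window shown (chr5:122078210-122078509, minus strand) 4, while the other LOX windows held 2 each. PLOD3 (chr7:101217532-101217831, minus strand) held 0, as did P4HA2 (chr5:132227042-132227341, minus strand), which rose, and LOXL1. SERPINH1, which did not pass, held 1 in the window shown (chr11:75562003-75562302, plus strand) and 3 in its other window. In all, 5 of the 8 members with a promoter in the table had a match, beside 52.4% of 27305 genes. A match is a description of letters in this window, and the share in the members lies near that of all genes.

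The microRNA itself is hsa-miR-106a-5p, shown because its seed (bases 2 to 8, in capitals) sets which 3′ untranslated regions it can pair with.
hsa-miR-106a-5p: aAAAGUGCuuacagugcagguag
The same seed is carried by 8 mature microRNAs in the RefSeq table, among them miR-17-5p, miR-20a-5p and miR-93-5p. Its 7-base match, GCACTTT, occurred in the longest annotated 3′ untranslated region of 1 of the 9 members, P4HA2, and in 24.7% of 12214 tested genes with one in GENCODE 29. The site in P4HA2 begins at base 849 of a region of 1172 bases. The 30 bases that hold it (chr5:132192143-132192172, minus strand of GRCh38) are shown with the match in capitals.
P4HA2: cactgcccccaGCACTTTggagataaatca
P4HA2 was higher in mimics, as given above, and the other members that rose held no such match.

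P4HA1 had the largest rise of the members that passed, and no member fell, so it was used to find genes of like pattern. Over the 6 libraries, the 5 annotated tested rows nearest to P4HA1 by root mean square difference of log2(FPKM + 0.5) from the NC mean were CRABP2 (0.0575), EGLN3 (0.0766), VEGFA (0.0934), ORAI3 (0.0973) and GABARAPL1 (0.115), out of 12359 searched. EGLN3, a prolyl hydroxylase that marks HIF for breakdown, averaged 1.85 ± 0.0982 FPKM over the NC libraries, 1.52 ± 0.0729 over OE and 5.83 ± 0.255 over mimics (SD, n = 2 each). CRABP2, which carries retinoic acid, was 12.9 ± 1.14, 10.5 ± 0.454 and 37.3 ± 0.849 FPKM in the same order. These likenesses describe 6 libraries that share their groups and depth with P4HA1.

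Of 25 further genes that process collagen, 17 were tested. In mimics against NC 1 was higher and none lower, with a median of 0.02, where 4.29% of all rows passed as higher. The one was CRTAP, a cofactor of prolyl 3-hydroxylation, at 16.5 and 17.8 FPKM in NC and 26.99 and 21.8 in mimics (0.49, adjusted p = 0.0473). Its enzyme P3H1 (0.12, adjusted p = 0.692), the peptidyl-prolyl isomerases PPIB (-0.05, 0.854) and FKBP10 (0.02, 0.927), the collagen galactosyltransferase COLGALT1 (0.31, 0.127) and the procollagen C-proteinase BMP1 (0.11, 0.660) did not pass. LOXL3, a further lysyl oxidase, was 2.83 and 2.52 FPKM in NC and 1.49 and 2.41 in mimics (-0.40, adjusted p = 0.277), and LOXL4 stayed at 0.00616 to 0.0360 FPKM. In OE against NC 0 of the 17 passed (limma, 1 at an unadjusted p under 0.05), where 0.257% of all rows passed. The largest differences were PCOLCE2 (-0.34, adjusted p = 0.676) and PCOLCE (-0.30, 0.940), enhancers of C-propeptide removal. CRTAP was the only one of the 17 to pass between OE and mimics (-0.54, adjusted p = 0.0348), where 5.32% of all rows passed as lower.

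The substrates were sparse. Of 44 collagen chain genes 12 were tested. Across a group's libraries the sum of the 44 ranged from 33.6 to 36.7 FPKM in NC, 27.3 to 28.0 in OE and 38.3 to 48.9 in mimics. These sums lay under the level of PLOD3 alone. COL4A5, a chain of basement membrane collagen, was the highest in NC at 14.4 and 12.2 FPKM, with 10.6 and 10.0 in OE and 14.9 and 16.2 in mimics. It was lower in OE than in mimics (-0.57, adjusted p = 0.0264), as was COL1A1 (-1.06, adjusted p = 0.0229), a chain of type I collagen at 0.682 and 0.521 FPKM in NC, 0.491 and 0.242 in OE and 1.16 and 1.44 in mimics. COL9A3, a chain of cartilage collagen IX, fell in both treated groups, from 5.12 and 4.93 FPKM in NC to 1.82 and 2.15 in OE (-1.16, adjusted p = 0.0213) and 2.28 and 2.15 in mimics (-1.03, adjusted p = 0.00695), and these comparisons share the NC libraries. In mimics against NC the median of the 12 chains was 0.30, and none was called higher, where 4.29% of all rows passed as higher.

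Markers of fibroblasts, the main collagen-making cells of tissue, were also measured, and 0 of the 4 tested passed in mimics against NC. All 4 had an unadjusted p under 0.05 (limma), as did 3615 of all 13998 rows. The 9 markers summed to 86.0 to 89.6 FPKM in NC, 86.6 to 90.6 in OE and 108 to 180 in mimics. LUM, the proteoglycan lumican, made up most of this, at 86.0 and 82.1 FPKM in NC and 172 and 103 in mimics (0.66, adjusted p = 0.0809). All 4 markers tested (LUM, DCN, COL1A1 and COL3A1) had higher values in both mimics libraries than in either NC library. The same held for 27.2% of all rows. FAP was listed at 0 in every library, and COL1A2, PDGFRA, PDGFRB and THY1 did not exceed 0.141 FPKM in any. The part of these markers in the rise of the enzymes was not tested.

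Genes of oxygen sensing and TGF-beta signalling, a list of 22 chosen with earlier results of these data known, had 20 tested. In mimics against NC 5 were higher and none lower, with a median of 0.20, where 4.29% of all rows passed as higher. The 5 were ADM (2.86, adjusted p = 0.00053), VEGFA (1.54, 0.000206), BNIP3 (1.53, 0.00291), EGLN3 (1.43, 0.00223) and ANKRD37 (1.40, 0.0158), all known to be induced in hypoxia. Of these, VEGFA and EGLN3 were already named above among the genes nearest in pattern to P4HA1. HIF1A, the oxygen-regulated subunit of HIF-1, was 45.4 and 37.5 FPKM in NC and 69.5 and 34.7 in mimics (0.25, adjusted p = 0.594), and CA9 was listed at 0 in 5 of the 6 libraries. In OE against NC 0 of 20 passed (limma, 3 at an unadjusted p under 0.05), where 0.257% of all rows passed. The median of the 20 was -0.19, and for 17 of them each OE library was below each NC library, where 26.5% of all rows did. The largest OE differences were in ANKRD37 (-0.64, adjusted p = 0.712) and BNIP3 (-0.57, 0.516). Between OE and mimics 7 of 20 were lower in OE, where 5.32% of all rows passed as lower. Among the 7 was TGFB1 (-0.91, adjusted p = 0.0177), which encodes a cytokine that induces matrix genes.

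Among 10 genes of cofactor supply and matrix partners of LOX, 7 were tested. In mimics 2 were higher than in NC, where 4.29% of all rows passed as higher. ATOX1, a copper chaperone that hands copper to the pump ATP7A, rose by 0.56 (adjusted p = 0.0391), and SLC2A1, a glucose transporter that also takes up oxidised vitamin C, rose by 0.52 (adjusted p = 0.0333). ATP7A, which loads copper into secreted enzymes, was 2.64 and 2.36 FPKM in NC and 4.31 and 2.95 in mimics (0.44, adjusted p = 0.177), and SLC23A2, an ascorbate transporter, differed by 0.18 (adjusted p = 0.413). In OE against NC 0 of 7 passed (limma, 1 at an unadjusted p under 0.05), where 0.257% of all rows passed. FN1 stood at -0.31 (adjusted p = 0.575) and SLC2A1 at -0.25 (adjusted p = 0.824). Fibronectin (FN1), to which LOX can bind, was 215 and 223 FPKM in NC, 174 and 178 in OE and 265 and 264 in mimics, and differed between OE and mimics (-0.59, adjusted p = 0.0140), as did SLC2A1 (-0.77, adjusted p = 0.00883).

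**Figure D4:**
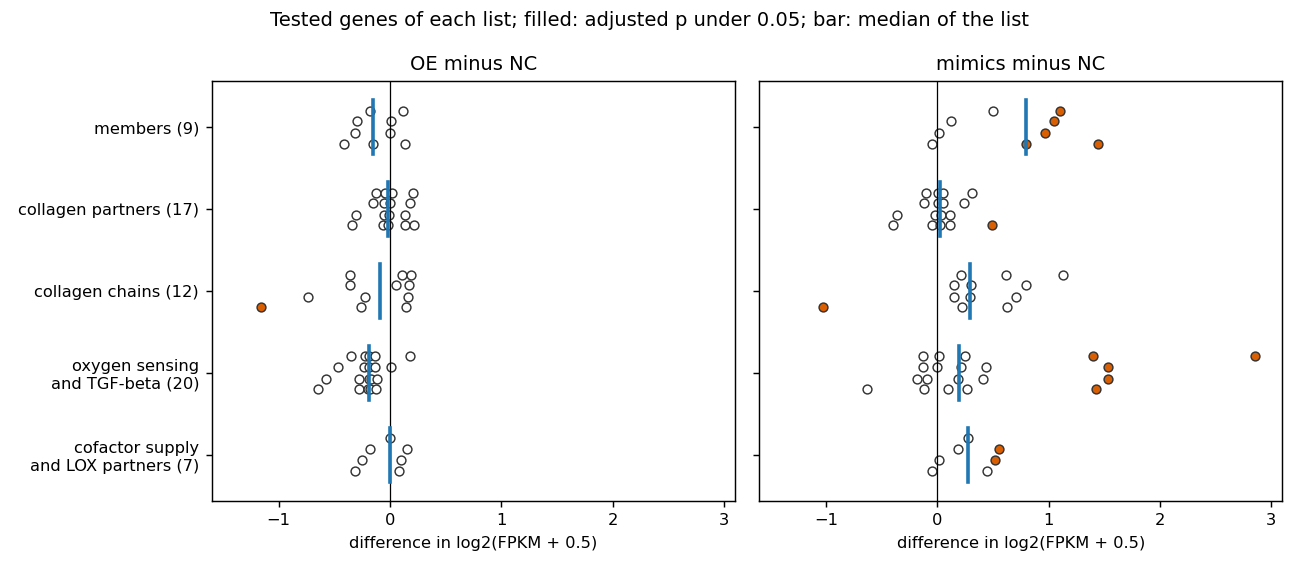
Differences in log2(FPKM + 0.5) of every tested gene in the 9 members and 4 wider lists for OE minus NC and mimics minus NC, with filled points at an adjusted p under 0.05 and bars at each list's median. In mimics the median was 0.80 for the members and 0.02 for the 17 collagen partners.

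The genes lie on 8 chromosomes of GRCh38, per GENCODE 29. LOX spans chromosome 5 from 122063195 to 122078360 on the minus strand and overlaps exons of SRFBP1 on the other strand, P4HA2 spans chromosome 5 from 132191838 to 132295315 on the minus strand, and PLOD3 spans chromosome 7 from 101205977 to 101218420 on the minus strand, antisense to exons of ZNHIT1. P4HA1 lies on chromosome 10 from 73007217 to 73096974 (minus), PLOD1 on chromosome 1 from 11934205 to 11975538 (plus), PLOD2 on chromosome 3 from 146069440 to 146163653 (minus), SERPINH1 on chromosome 11 from 75562056 to 75572783 (plus) and LOXL1 on chromosome 15 from 73925989 to 73952137 (plus). LOXL2, on chromosome 8 from 23297189 to 23425328 (minus), shares exon sequence with ENTPD4 on the same strand. Whether strand was used in counting is not given in the sources used here, so reads of overlapping genes cannot be told apart. In mimics against NC the overlapping genes differed by 0.02 for SRFBP1 (adjusted p = 0.951), -0.10 for ZNHIT1 (adjusted p = 0.648) and -0.14 for ENTPD4 (adjusted p = 0.547). LOXL1, LOXL2, P4HA1 and P4HA2 also have antisense noncoding partners, which were not analysed here.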

How the data were processed

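RNA was measured in 6 libraries of 22RV1 cells, 2 in each of 3 groups taken from the sample titles. The authors deposited FPKM with 1 column per library, and libraries were made with an mRNA kit from TRIzol-extracted RNA, per the labels' protocols. The submitters' processing notes list HISAT2 2.0.4 and GRCh38. Nothing in the sources used here gives the counting tool or its annotation. Because FPKM divides by a library's total, a change in abundant transcripts shifts all other values, and since FPKM holds no counts, the replicates' spread is the measure of precision.

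The 13998 rows averaging 0.5 FPKM or more (12360 of them annotated) entered limma 3.58.1 (R 4.3.3) as log2(FPKM + 0.5), with an intensity trend and all 6 libraries in 1 model (3 residual and 5.67 prior degrees of freedom). Tests were two-sided with Benjamini-Hochberg adjustment over all rows, and the fit was tested on simulated data. With 2 libraries a group, exact permutation p-values go no lower than 0.333. Alternatives were other pseudocounts, filters and scalings, 4 libraries only, no trend, a replicate block and each library left out. The members, lists and tests were chosen with earlier results of these data known. Named were all members, up to 6 passing genes of each list and comparison by size (or the 2 largest if none passed), and the 5 genes nearest in pattern to P4HA1. P3H1, PPIB, FKBP10, COLGALT1, BMP1, P4HB, P4HA3, LOXL3, LOXL4, HIF1A, CA9, ATP7A, SLC23A2, the single markers and the overlapping genes were added after their values were seen.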

Additional observations from a re-analysis of the deposited data

How the results depend on the processing

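The 5 rises in mimics held in direction under every alternative in which the gene was tested. LOX was not tested with a filter of 2 FPKM, its mean being lower. P4HA1 passed in all 16 alternatives in both comparisons with mimics. Without a filter, which tests all 24872 rows, 2 members (P4HA1 and P4HA2) passed as higher in mimics than NC and 2 as lower in OE than mimics. With the same setting the rows called were 60 higher and 37 lower in mimics against NC, 25 and 112 in OE against mimics, and 5 lower in OE against NC. With only the 4 libraries compared, the rows called were 319 higher and 282 lower in mimics against NC, 199 and 442 in OE against mimics, and 11 and 108 in OE against NC. Rows lower in mimics than NC were 796 after rescaling without the mitochondrially encoded genes. Rows higher in OE than mimics were 557 after that rescaling, 552 with median-of-ratios scaling, 573 with quantile normalization and 225 without a trend. Rows higher in OE than NC were 1 with a filter of 2 FPKM. The cause of these changes was not tested.

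Leaving out each library gave 1 to 6 members higher in mimics than NC and 3 to 6 lower in OE than mimics. Rows called ranged from 41 to 1206 higher and 25 to 1821 lower in mimics against NC, from 15 to 1441 higher and 121 to 1333 lower in OE against mimics, and from 0 to 11 higher and 3 to 109 lower in OE against NC. A lone library in a group is assumed to vary like the others. Signs turned in members that did not pass: over the same settings LOX ranged from -0.12 to 0.12, and LOXL1 from -0.15 to 0.18, in OE against NC. LOXL1 ranged from -0.27 to 0.18 in mimics against NC and -0.17 to 0.28 in OE against mimics. PLOD3 ranged from -0.0391 to 0.0735, and SERPINH1 from -0.12 to 0.37, in mimics against NC, and SERPINH1 from -0.25 to 0.24 in OE against mimics. Rescaling without the mitochondrially encoded genes gave -0.00034 for LOX in OE against NC, -0.0771 for PLOD3 in mimics against NC and 0.0790 for SERPINH1 in OE against mimics, where median-of-ratios scaling gave 0.0065.

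The groups share replicate numbers, but the labels tie them to nothing, and deviations of replicates with the same number correlated at 0.153 for NC and OE, -0.0268 for NC and mimics and 0.0194 for OE and mimics. With the replicate block, rows called in OE against NC were 0 higher and 9 lower, members higher in mimics than NC were 5 and members lower in OE than mimics were 6.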
